A study of Mus musculus with 12 samples.

Results

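The transcripts that encode the enzymes and factors which add, bind and remove poly(A) tails were followed in 12 single mouse blastomeres. Members were chosen by gene name alone. They are the non-control probes named for a numbered Cpsf, Cstf, Cnot, Papd or Pabpc gene, for a Papol gene, for the Dcp1 and Dcp2 decapping genes, or for Tob1, Tob2, Parn, Pabpn1, Xrn1 or Xrn2. This gave 86 of the 41174 probes on the array, for 38 genes. The adding side held 14 genes, 5 poly(A) polymerases and 9 cleavage factors. The removing side held 12 genes, 5 deadenylases, 5 further CCR4-NOT subunits and 2 adaptors. The other 12 were 6 poly(A)-binding proteins, 5 decapping or 5-prime exonuclease genes, and Cpsf3l, whose name recalls cleavage factors but which encodes a subunit of the Integrator complex.

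A poly(A) tail is made in the nucleus, where cleavage factors recognise the end of the transcript, cut it and recruit a poly(A) polymerase. In the cytoplasm the tail is bound by poly(A)-binding proteins and is shortened by deadenylases, most of them in the CCR4-NOT complex, after which the cap is removed and the body of the RNA is degraded. Oocytes and early embryos use both activities heavily, since maternal transcripts are stored with short tails, some are lengthened again by cytoplasmic polyadenylation when they are needed, and most are deadenylated and lost around the 2-cell stage.

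Embryos came from naturally mated CF-1 mice and were taken at the 2-cell stage, about 36 h post coitus. The labels name no treatment, genotype or age of the dams. Each of 6 embryos was split into its 2 cells, and both were profiled. Experiment 2 held pairs D, G and H and experiment 1 held pairs D, I and L, giving 3 embryos and 6 cells apiece. The labels number the cells of an embryo 1 and 2 without saying what the numbers stand for. Cells of 1 embryo are not independent samples of a condition, so experiments were compared with embryo as a random block in limma. Experiment coincides with dye, scan and slide, and these cannot be told apart. Amplification started from poly(A)+ RNA, so a longer tail and more RNA of a transcript cannot be told apart either.

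Values are log2 signals relative to the 75th percentile of each array. A level of 0 means as bright as that percentile, and the floor at -4.12 stands for any weaker signal. Spots well above background made up 31.2 to 78.8% of all spots in the cells of experiment 2 and 22.1 to 41.7% in those of experiment 1. Of the member probes, 57 to 75 of 86 were well above background in the cells of experiment 2 and 33 to 57 of 86 in those of experiment 1. Oocyte and 2-cell markers were well detected, with 20 to 22 of 22 genes in cells of experiment 2 and 19 to 21 of 22 in cells of experiment 1. Of 20 tested, 3 were higher in experiment 2 (Tcstv1, Tcstv3 and Tdpoz1) and 2 lower (Zar1 and Khdc3), beside 3.96% and 4.16% of all tested probes. Markers of other cells also differed with the experiment. The summed signal of oviduct epithelium markers was 1.09 to 2.50 times the percentile in experiment 2 and 10.4 to 76.8 times in experiment 1, and 8 of 16 tested genes were lower in experiment 2. Stroma and macrophage markers summed to 1.59 to 2.31 in experiment 2 and 37.0 to 280 in experiment 1, with 11 of 16 lower and 0 at background throughout. Cumulus and granulosa markers summed to 2.98 to 4.92 in experiment 2 and 1.68 to 3.25 in experiment 1. Of 20 genes on that list 5, Fshr, Kitl, Lhcgr, Star and Tnfaip6, were at background in all cells. Amhr2 and Nr5a2 were above background in all 12 cells. Of 7 tested, all 7 had a difference above 0, and 1 passed, Amhr2, higher in experiment 2 by 1.75 ± 0.46. Of the oviduct list Muc1 was at background in all cells. The part of these RNAs in the differences below was not tested.

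A probe entered the tests if its signal was well above background in 6 cells or more, which 16712 probes met. They included 58 member probes for 31 genes, and 18 genes had a probe measured on all 12 arrays. Where a gene had several tested probes, the one with the highest mean stands for it. The 7 genes left out were measured in few cells. The Tob1 probe was above background in 4 cells of experiment 2 and 1 of experiment 1, and the better Xrn1 probe likewise in 4 and 1. The better Xrn2 probe was so in 3 cells of experiment 2 and 1 of experiment 1. Papolb, a testis-enriched poly(A) polymerase, was so in 3 cells of experiment 2 and 0 of experiment 1. Dcp1b was so in 2 cells of experiment 2 and 3 of experiment 1. Pabpc5 and the probe named Pabpc4l, whose accession belongs to Gm5088, were at background in every cell. For these genes a level under the detection limit was measured, not absence of the transcript.

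**Figure D1:**
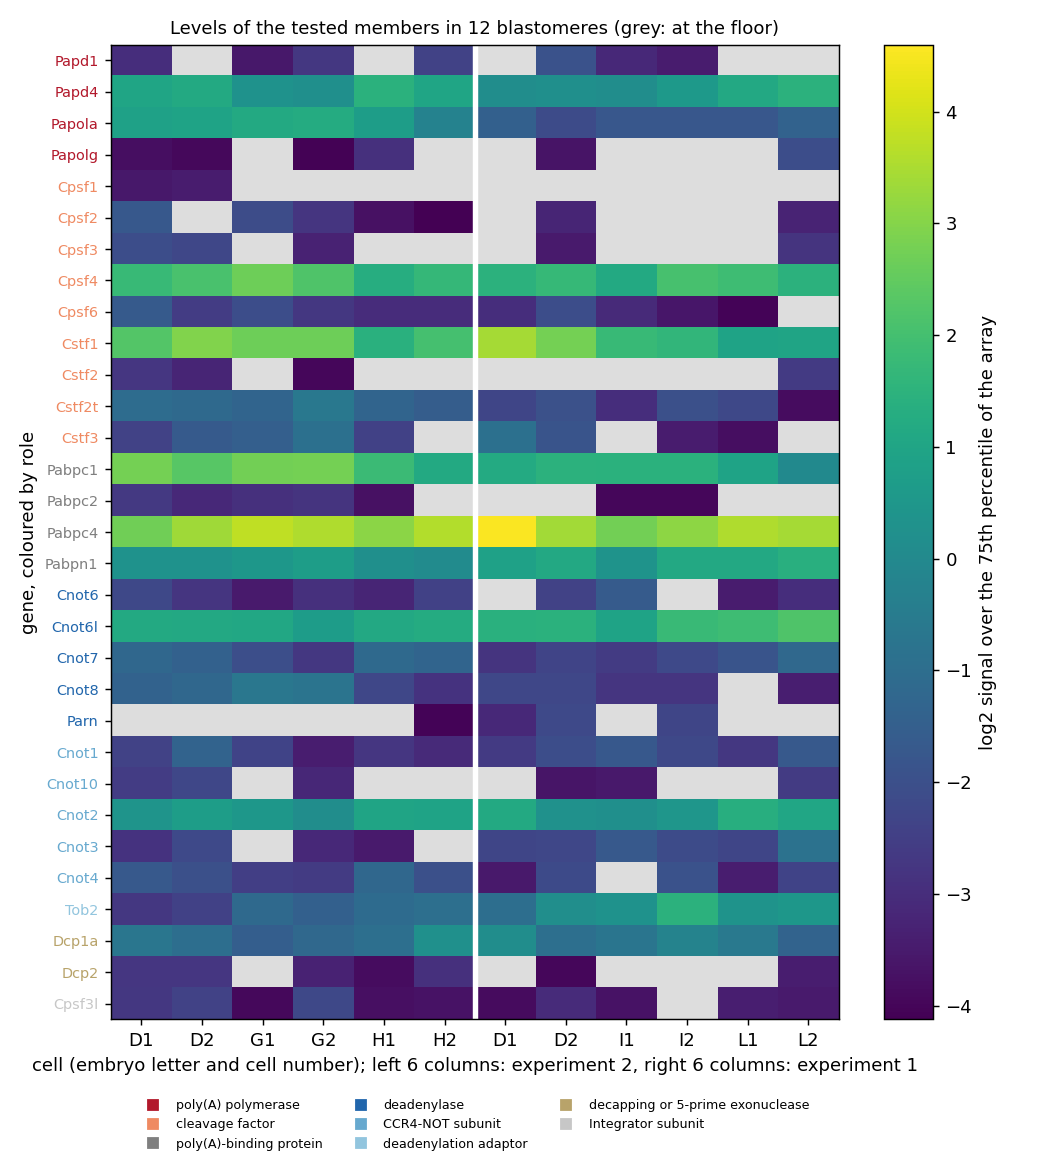
Log2 signal of the 31 tested genes (rows, coloured by role) in the 6 cells of experiment 2 (left) and the 6 cells of experiment 1 (right), each relative to the 75th percentile of its array; grey marks values at the floor of -4.12. Papola is lighter on the left, Tob2 is lighter on the right, and Cpsf1 lies at the floor in 4 cells of experiment 2 and 6 of experiment 1.

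Between the experiments, 2 of the 31 genes passed the test. Papola, the canonical nuclear poly(A) polymerase, was higher in experiment 2, and Tob2, an adaptor that brings the CCR4-NOT deadenylases to poly(A)-binding protein, was lower. Over all tested probes 8.12% were called, 3.96% higher and 4.16% lower in experiment 2, so the share among the members was near the background and says nothing particular about the machinery. The cells of the experiments did not overlap for 2 of 31 genes, Papola and Cstf2t, against 7.67% of all tested probes.

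The poly(A) polymerases come first among the adding genes. In experiment 2 Papola read 0.87 and 0.94 (pair D), 1.19 and 1.23 (pair G), and 0.74 and -0.26 (pair H). In experiment 1 it read -1.44 and -2.12 (pair D), -1.77 and -1.76 (pair I), and -1.75 and -1.38 (pair L). Every cell of experiment 2 lay above every cell of experiment 1, although cell 2 of pair H was well below its twin and the other cells of its experiment. The difference was 2.49 ± 0.29 log2 units (SE, 6 cells against 6 cells), or 5.61-fold, with an adjusted p of 0.000584 in limma. It rests on 1 probe, A_52_P404096. The other tested Papola probes differed by 0.07 ± 0.50 and -0.11 ± 0.30, the dimmest with 5 of 6 floor values in both experiments, and when the tested probes were averaged the difference was 0.81 with an adjusted p of 0.0690. With the percentile taken over all probes it was 0.0843, and the range over the 24 alternatives was 6.4e-05 to 0.0843.

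Other polymerases did not pass. Papd4, a cytoplasmic polymerase also called Tent2, had a lowest, median and highest level of 0.22, 1.01 and 1.44 in experiment 2 and of 0.14, 0.39 and 1.49 in experiment 1. The ranges overlapped almost fully, and the difference was 0.26 ± 0.31. Papolg, a second nuclear polymerase, differed by -0.13 ± 0.48 and lay at the floor in 2 cells of experiment 2 and 4 cells of experiment 1. Papd1, the mitochondrial poly(A) polymerase Mtpap, differed by 0.17 ± 0.59 and was at the floor in 2 and 3 cells of the same experiments.

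The 9 cleavage factors differed by 0.16 to 1.39, with a median of 0.47, and none passed. Only 3 of 9 were measured on all 12 arrays (median 0.42), and some entered the tests mainly through experiment 2: Cpsf1 was well above background in 6 cells of experiment 2 and 2 of experiment 1, and Cstf2 in 6 and 3. The count above 0, 9 of 9, therefore carries no weight of its own. It also moved with the processing, since 7 of 9 lay above 0 with the percentile over all probes, quantile normalization or another floor, 6 of 9 without pair D of experiment 2 and 4 of 9 with normexp background correction. Over all tested probes 64.7% lay above 0 and the median was 0.19. Cstf2t, the retrogene paralog of the RNA-binding cleavage stimulation factor Cstf2, read -1.55, -1.21 and -0.64 (lowest, median, highest) in experiment 2 and -3.84, -2.26 and -1.97 in experiment 1. The groups did not overlap, with a difference of 1.39 ± 0.40 and an adjusted p of 0.0574 in limma. Cstf2 itself differed by 0.16 ± 0.38, with 3 cells of experiment 2 and 5 of experiment 1 at the floor.

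The other subunits spread between these. Cstf3, the scaffold of the stimulation factor, differed by 0.88 ± 0.73, and Cstf1, a WD repeat subunit, by 0.42 ± 0.47. Cstf1 read 1.40, 2.47 and 2.95 in experiment 2 and 0.94, 1.68 and 3.42 in experiment 1, so the range of experiment 1 was the wider and held that of experiment 2. Cpsf6, of cleavage factor I, differed by 0.81 ± 0.41, and Cpsf2, an inactive relative of the endonuclease, by 0.73 ± 0.56. Cpsf3, the endonuclease that cuts the transcript, differed by 0.47 ± 0.48. Cpsf4, a zinc finger subunit that binds the polyadenylation signal, was measured on all 12 arrays, at 1.30, 1.91 and 2.67 in experiment 2 and 1.16, 1.60 and 2.05 in experiment 1. The ranges overlapped, and the difference was 0.32 ± 0.28. Cpsf1, the largest subunit, differed by 0.21 ± 0.16 with most cells at the floor.

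On the removing side the 5 deadenylases went both ways and none passed. Cnot8, a catalytic subunit of the CCR4-NOT complex, read -2.83, -1.30 and -0.67 in experiment 2 and -4.12, -2.79 and -2.25 in experiment 1. The groups overlapped, and the difference was 1.41 ± 0.45 (adjusted p = 0.0834 in limma). Its paralog Cnot7 differed by 0.54 ± 0.37. Cnot6l, a catalytic subunit of the other kind that mouse oocytes need to clear maternal transcripts, read 0.69, 1.14 and 1.23 in experiment 2 and 0.95, 1.61 and 2.19 in experiment 1. Its difference was -0.54 ± 0.24 (adjusted p = 0.233 in limma), while its paralog Cnot6 differed by 0.27 ± 0.59. Parn, a deadenylase outside the complex, differed by -0.77 ± 0.44 and was at the floor in 5 cells of experiment 2 and 3 of experiment 1.

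Tob2, the adaptor, was the removing gene that passed the test. In experiment 2 it read -2.70 and -2.45 (pair D), -1.15 and -1.44 (pair G), and -1.06 and -0.93 (pair H). In experiment 1 it read -0.98 and 0.19 (pair D), 0.31 and 1.48 (pair I), and 0.36 and 0.51 (pair L). The groups touched, since cell 1 of pair D in experiment 1 lay just under cell 2 of pair H in experiment 2, and every other cell of experiment 1 lay above all cells of experiment 2. The difference was -1.93 ± 0.47, or 3.82-fold lower, with an adjusted p of 0.0279 in limma. The other tested Tob2 probe differed by 0.33 ± 0.43, and the mean over both gave -0.80 with an adjusted p of 0.184. The adjusted p also missed the threshold without pair D of experiment 2 (0.0588), without cell 2 of pair G in experiment 2 (0.0621), and without cell 2 of pair D (0.0569), cell 1 of pair L (0.0764) or cell 2 of pair L (0.0557) in experiment 1. Over all alternatives to the processing and the samples it ranged over 0.00625 to 0.486, and 13 of 24 passed.

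Among the other CCR4-NOT subunits, Cnot3, of the NOT module, differed by -1.39 ± 0.45 (adjusted p = 0.0898 in limma), and Cnot1, the scaffold, by -0.38 ± 0.42. Cnot4, a ubiquitin ligase that associates with the complex, differed by 0.92 ± 0.54, and Cnot10 by 0.30 ± 0.47. Cnot2, the partner of Cnot3, shows most plainly how much depends on the probe. The probe with the highest mean differed by -0.15 ± 0.28. Another passed the test at 1.15 ± 0.25 (adjusted p = 0.0163 in limma), and the third differed by -1.29 ± 0.39 (adjusted p = 0.0707), with overlapping groups. Only the higher direction was called.

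Such disagreement was common. Of 20 genes with several tested probes, 9 had probes of opposite sign and 6 had a spread over 1 log2 unit, with a median spread of 0.62. The 3 Cnot3 probes ran over -2.10 to 0.26 and the 3 Cnot4 probes over -0.46 to 0.94. The Cpsf3 and Cpsf6 probes lay closest, at spreads of 0.07 and 0.06. The files give no probe sequences, so what each probe binds was not analysed here.

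**Figure D2:**
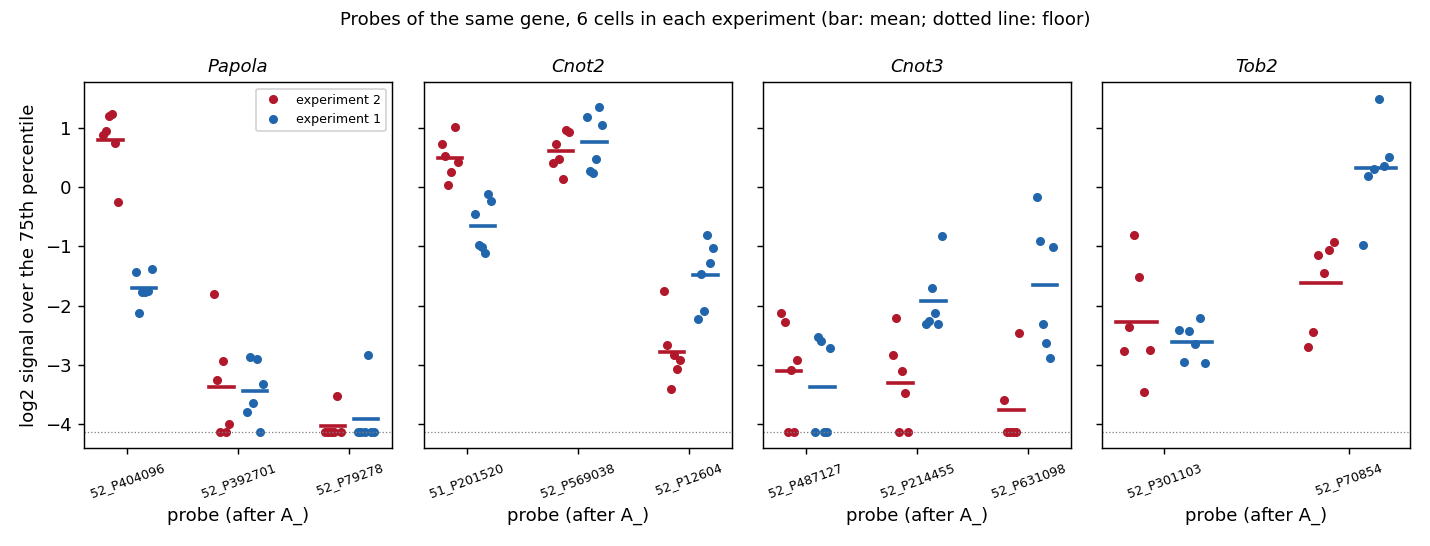
Log2 signal of each tested probe of Papola, Cnot2, Cnot3 and Tob2 (x axis: probe name) in 6 cells of experiment 2 (red, left of each pair) and 6 cells of experiment 1 (blue, right); bars are means and the dotted line is the floor of -4.12. The Papola difference of 2.49 is seen by 1 probe of 3, and the 3 Cnot2 probes differ by 1.15, -0.15 and -1.29.

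The upstream sequences of the members called between the experiments are shown because Papola and Tob2 moved in opposite directions. Both have 1 start in the RefSeq promoter table, which gives 250 bases before and 50 after the start in build GRCm38.p6. Papola lies at chr12:105784447-105784746 on the + strand and Tob2 at chr15:81858277-81858576 on the - strand. Capitals mark a GC box.
Papola: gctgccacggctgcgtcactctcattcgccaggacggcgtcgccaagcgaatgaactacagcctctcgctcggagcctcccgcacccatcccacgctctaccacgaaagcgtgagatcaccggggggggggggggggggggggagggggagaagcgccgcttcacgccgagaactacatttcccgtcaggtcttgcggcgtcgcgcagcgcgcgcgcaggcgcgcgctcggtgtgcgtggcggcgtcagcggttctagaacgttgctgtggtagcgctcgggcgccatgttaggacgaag
Tob2: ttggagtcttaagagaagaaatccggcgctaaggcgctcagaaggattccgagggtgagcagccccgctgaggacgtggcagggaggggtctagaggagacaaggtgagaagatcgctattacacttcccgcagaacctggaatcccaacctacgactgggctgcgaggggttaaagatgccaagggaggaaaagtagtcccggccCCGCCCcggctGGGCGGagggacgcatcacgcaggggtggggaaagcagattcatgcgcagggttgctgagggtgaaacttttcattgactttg
The TATA box, searched as TATAAA on both strands, occurs in 13.6% of 32817 promoters. The CCAAT box, searched as CCAAT on both strands, occurs in 37.4% of them. The GC box, searched as GGGCGG on both strands, occurs in 35.6%. Papola held none of the motifs and had 40 CpG dinucleotides, against a median of 7 over all promoters. Tob2 had 17 and held 2 GC boxes, which begin 44 and 33 bases before the start, 1 on each strand. These matches describe the letters and are not binding sites. Cnot8 has 4 listed starts and is not shown.

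The poly(A)-binding proteins did not pass either. Pabpc1, the main cytoplasmic one, read 1.18, 2.53 and 2.79 in experiment 2 and 0.03, 1.32 and 1.48 in experiment 1, with a difference of 1.18 ± 0.37 (adjusted p = 0.0792 in limma). Only cell 2 of pair H in experiment 2 fell within the range of experiment 1. Pabpc2, a retrogene copy that can share probe signal with Pabpc1, differed by 0.85 ± 0.25 (adjusted p = 0.0638 in limma). It was at the floor in 1 cell of experiment 2 and 4 of experiment 1. Pabpn1, the nuclear protein that sets tail length during synthesis, went the other way at -0.64 ± 0.21 (adjusted p = 0.0962 in limma). It read 0.10, 0.31 and 0.74 in experiment 2 and 0.36, 1.13 and 1.36 in experiment 1, and the groups overlapped. Pabpc4, a further cytoplasmic member, read 2.70, 3.47 and 3.76 in experiment 2 and 2.75, 3.40 and 4.54 in experiment 1, with a difference of -0.12 ± 0.34. Without cell 2 of pair H of experiment 2, 5 members were called higher in place of 1, with Pabpc1, Pabpc2, Cnot8 and Cstf2t joining Papola. Over all 16712 tested probes 1570 were called in either direction there, against 1357 with all cells. Cstf2t also passed without cell 2 of pair I or cell 2 of pair L in experiment 1, Pabpn1 without cell 1 of pair I in experiment 1, and Cnot3 without cell 2 of pair D in experiment 2.

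Of the genes that act after deadenylation, Dcp2, the decapping enzyme, differed by 0.70 ± 0.32, and its activator Dcp1a by -0.23 ± 0.40. Dcp2 was at the floor in 1 cell of experiment 2 and 4 of experiment 1. Cpsf3l differed by 0.47 ± 0.42. None of these passed.

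**Figure D3:**
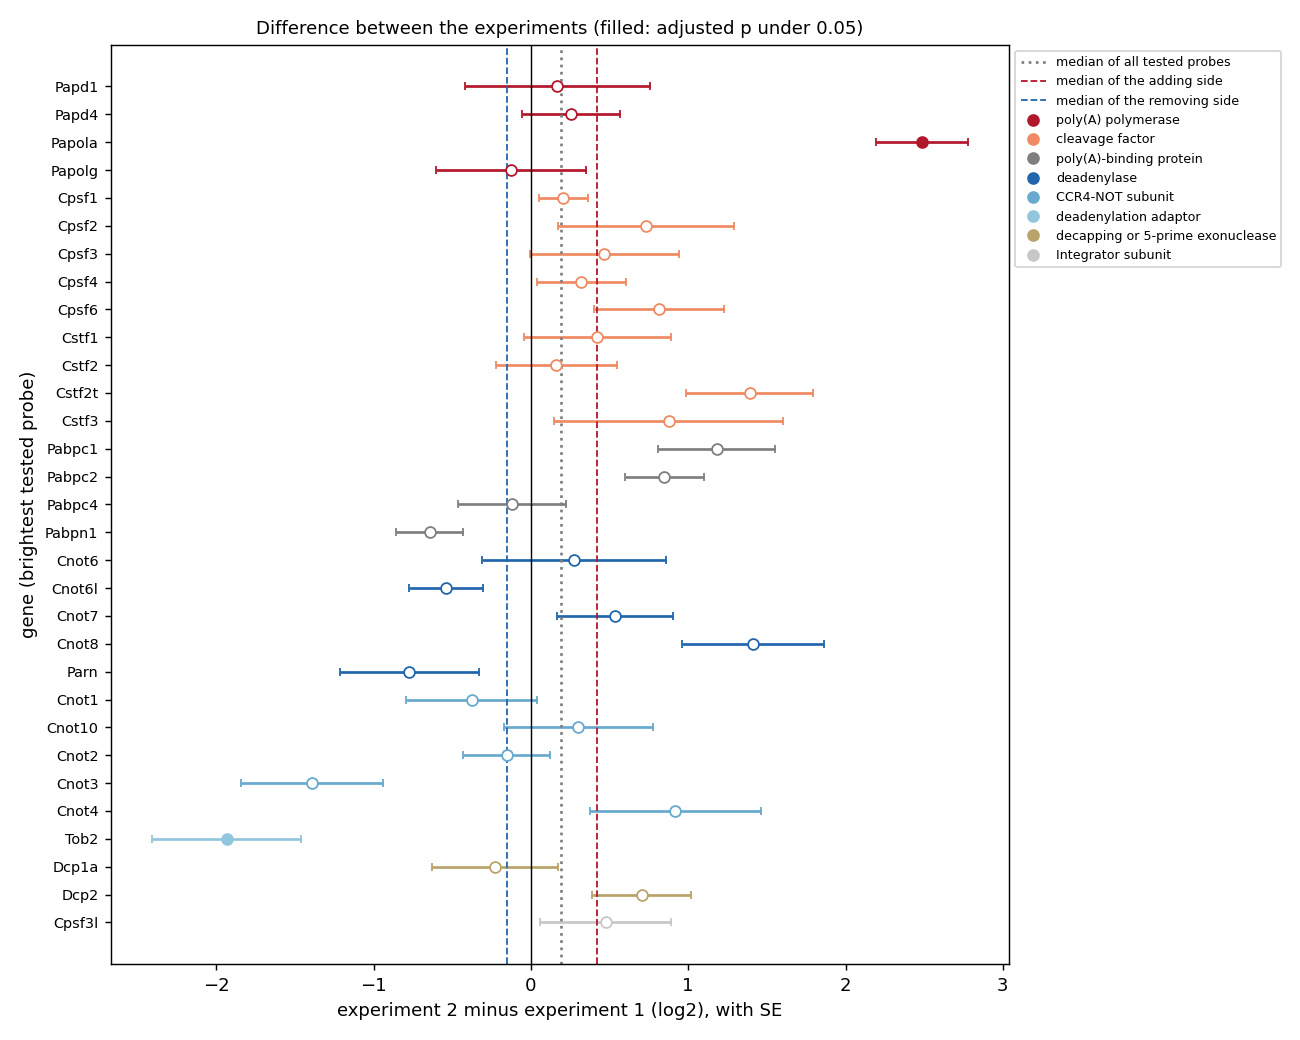
Difference between experiment 2 and experiment 1 (x axis, log2, with SE) for the 31 tested genes in order of role; filled points have an adjusted p under 0.05 in limma. Papola at 2.49 and Tob2 at -1.93 are filled, and the dashed medians of the adding side (0.42) and the removing side (-0.15) lie on either side of the dotted median of all tested probes (0.19). With normexp background correction the adding median was -0.0020, and with no filter on probes the removing median was 0.061.

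Set against each other, the sides differed in their median difference between the experiments. It was 0.42 over 13 adding genes, 12 of them above 0, and -0.15 over 11 removing genes, 5 of them above 0, against 64.7% of all tested probes above 0. The 12 include the 9 cleavage factors, some of which entered the tests mainly through experiment 2, so this count carries no weight either. All tested probes had a median of 0.19. Counting only genes measured on all 12 arrays gave 0.42 over 5 adding genes and -0.27 over 8 removing genes, against 0.06 over all such probes. The enzymes alone had close medians, 0.21 over 4 polymerases and 0.27 over 5 deadenylases. The cleavage factors had a median of 0.47 and the further CCR4-NOT subunits one of -0.15.

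The same values are given cell by cell to show their spread, with each gene centred over the 12 cells. The centring sets the zero, so values above it in one experiment bring values below it in the other, and the signs say nothing about the level of either side. The median of the adding side minus that of the removing side in experiment 2 was 0.51 and 0.15 (pair D), 0.81 and 0.90 (pair G), and 0.14 and 0.18 (pair H). In experiment 1 it was -0.08 and -0.23 (pair D), -0.16 and -0.49 (pair I), and -0.21 and -1.0 (pair L). Cell 2 of pair L in experiment 1 lay lowest and pair G of experiment 2 highest. In experiment 1 the median of the adding side was -0.36 in both cell 1 of pair D and cell 2 of pair I. It was -0.56 in both cell 1 of pair I and cell 1 of pair L. Equal values in different cells mark a gene at the floor, so the score of these cells depends on the floor. No test was made, because the score is taken over chosen members. The gap between the side medians was 0.58 log2 units and lay within 0.31 and 0.82 under the 24 alternatives. Most alternatives kept the same member genes, so this range is no independent support for a gap. The adding median also includes the cleavage factors that entered the tests mainly through experiment 2. The scaling moved the median of all probes as well. With the percentile over all probes it was 0.00, beside medians of 0.29 for the adding and -0.21 for the removing side. With a floor for every array it was -0.11, beside 0.38 and -0.15 for the same sides. With normexp background correction it was -0.82, beside -0.0020 for the adding and -0.52 for the removing side. With no filter on probes the removing side was at 0.061, beside 0.37 for the adding side.

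**Figure D4:**
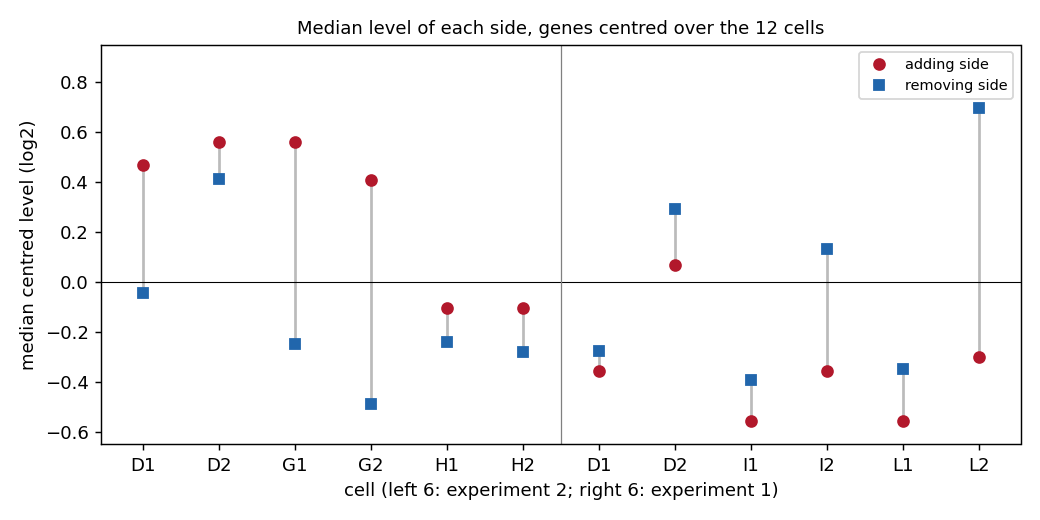
Median level (y axis, log2, genes centred over the 12 cells) of the adding side (red circles) and the removing side (blue squares) in each cell, experiment 2 on the left and experiment 1 on the right; grey lines join the sides of a cell. Adding minus removing runs over 0.14 to 0.90 in the cells of experiment 2 and over -1.0 to -0.08 in those of experiment 1. The zero is set by the centring. In experiment 1 the adding median of cell 1 of pairs D, I and L and of cell 2 of pair I is that of a gene at the floor.

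Other genes of the pathway were counted for comparison, beside the 3.96% higher and 4.16% lower among all tested probes. Of 15 tested nuclear 3-prime end processing genes outside the members, 4 were higher and 1 lower in experiment 2, with a median of 0.66. Rbbp6, a cleavage factor with a ubiquitin ligase domain, was higher by 1.77 ± 0.27, Nudt21, of cleavage factor I, by 1.76 ± 0.49, Casp8ap2, which acts on histone transcripts, by 1.51 ± 0.22 and Wdr33, which reads the polyadenylation signal, by 1.23 ± 0.31. The scaffold Sympk fell by 1.68 ± 0.22. Nudt21 passed narrowly (adjusted p = 0.0490 in limma). Its lowest level in experiment 1 was at the floor and its median there was -3.69, so its difference depends in part on the floor. Of 30 tested entries for cytoplasmic polyadenylation and tail regulators, 0 were higher and 1 was lower, and their median was 0.08. Tut7 was counted under both this name and its older name Zcchc6, at -0.58 and 0.21. The lower gene was Zfp36l1, which recruits deadenylases to AU-rich transcripts. It was at the floor in all 6 cells of experiment 2 (above background in 1 of them) and at -1.51, -0.86 and -0.05 in experiment 1. Cpeb1, which directs cytoplasmic polyadenylation, read -2.85, -1.54 and -1.40 in experiment 2 and -3.17, -2.40 and -0.85 in experiment 1. Its difference of 0.44 ± 0.53 did not pass. Of 34 decapping and decay genes, 0 were higher and 2 lower, the RNA-binding protein Khsrp (-1.47 ± 0.36) and Pnrc2, an activator of decapping. Pnrc2 was at the floor in 3 of 6 cells of experiment 2, so its difference of -2.95 ± 0.50 depends on the floor. The median of that list was 0.32.

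Between embryos of the same experiment, 1 of the 31 genes passed, against 1.41% of all tested probes. It was Cnot8 (adjusted p = 0.0459 in the moderated F test of limma). In experiment 2 it read -1.39 and -1.21 (pair D), -0.67 and -0.76 (pair G), and -2.26 and -2.83 (pair H). In experiment 1 it read -2.27 and -2.25 (pair D), -2.78 and -2.79 (pair I), and -4.12 and -3.38 (pair L). The cells of each embryo lay apart from those of the other embryos of their experiment. Pair G was 3.56-fold above pair H. Pair D of experiment 1 was at least 2.81-fold above pair L, where cell 1 was at the floor. In each experiment pair D lay alone on its slide, and in experiment 2 it was scanned on another day than pairs G and H. For pair D, embryo and slide therefore cannot be told apart. The call was lost without any 1 cell of pairs D or H in experiment 2, or of pairs D or I in experiment 1, at adjusted p of 0.0656 to 0.142. Within the 2 slides that held 2 embryos the adjusted p was 0.171, and the call held in 9 of 24 alternatives, with adjusted p from 0.00375 to 0.187. The second Cnot8 probe was too dim to test.

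At an unadjusted p under 0.05, 11 of 31 members differed between embryos, against 29.8% of all tested probes. The catalytic paralogs did not share an order. Cnot7 had embryo means of -1.23 in pair H and -2.37 in pair G of experiment 2, the highest and the lowest there, and of -1.51 in pair L and -2.58 in pair D of experiment 1. Papd4 likewise was highest in pair H of experiment 2 (1.22) and pair L of experiment 1 (1.31), and lowest in pair G (0.28) and pair D (0.18). Cstf1 was lowest in the same embryos where these were highest, at 1.71 in pair H of experiment 2 and 0.95 in pair L of experiment 1, and Cstf3, Cpsf6 and Pabpc1 were lowest there as well. Others of the 11 did not follow this order. Cpsf3 was lowest in pair H of experiment 2 but highest in pair L of experiment 1. Tob2 was lowest in pair D of both experiments, Pabpc2 in pair H of experiment 2 and pair D of experiment 1. Cpsf1 was at the floor throughout experiment 1. A shared order was not tested. None of these genes passed between embryos, at adjusted p of 0.0557 for Cstf1, 0.0648 for Papd4, 0.0839 for Cstf3, 0.105 for Cnot7 and 0.110 for Pabpc1 in limma. Without cell 1 of pair L in experiment 1, 9 members passed, without its cell 2 there were 3, and without cell 2 of pair G in experiment 2 there were 2. Over all 16712 tested probes the calls were 3885, 1835 and 1457 in the same order, against 235 with all cells.

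**Figure D5:**
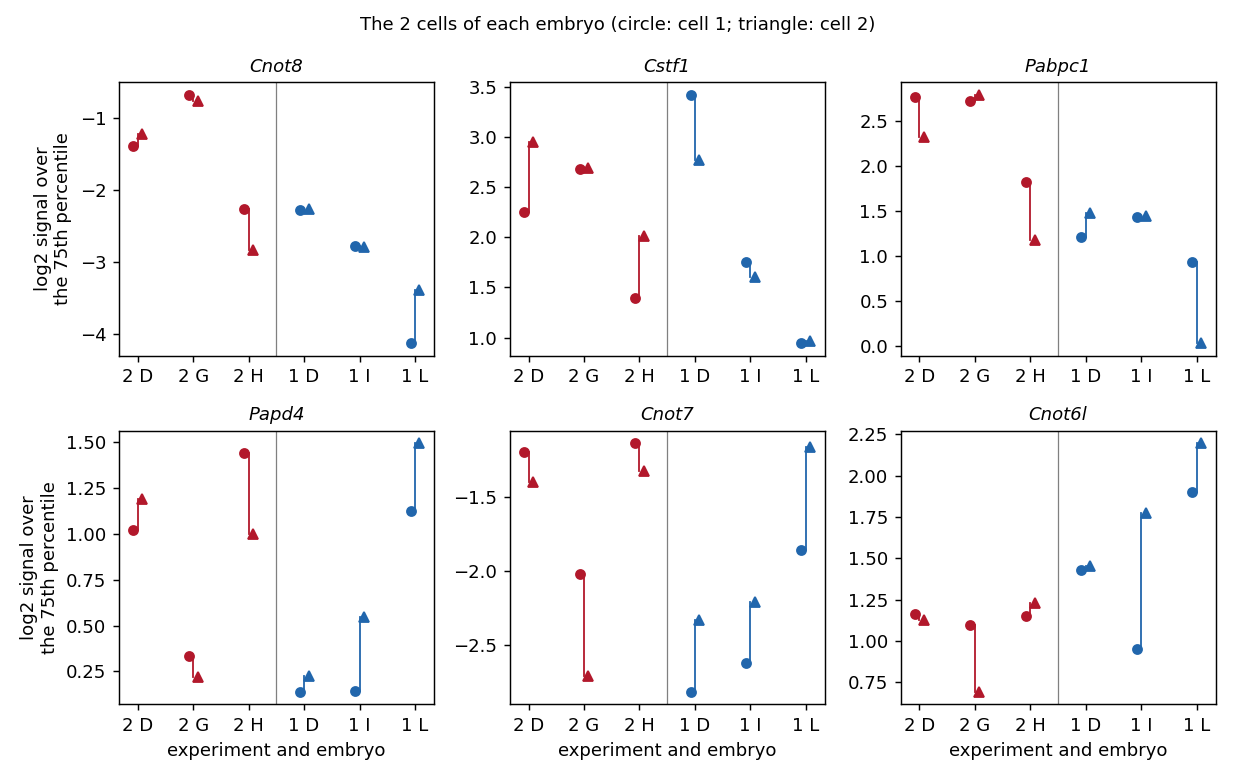
Log2 signal (y axis) of Cnot8, Cstf1, Pabpc1, Papd4, Cnot7 and Cnot6l in the cells of each embryo (x axis), experiment 2 in red on the left and experiment 1 in blue on the right; circles are cell 1 and triangles cell 2, joined within an embryo. Cnot8, Cstf1 and Pabpc1 are lowest in pair H of experiment 2 and pair L of experiment 1, where Papd4 and Cnot7 are highest. Cpsf3, Tob2 and Pabpc2, not shown, did not follow this order in both experiments.

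Sister cells were compared last. The median SD within an embryo was 0.45 log2 units over the 31 genes and 0.46 over all tested probes. Among members measured on all 12 arrays it was lowest for Papd4 (0.21) and highest for Cnot4 (0.85). Cell 2 minus cell 1 passed for 0 members in limma, as for 0 of all tested probes. At an unadjusted p under 0.05 there was 1 member against 4.41% of all tested probes. It was Dcp2, with 0.43 ± 0.17 and cell 2 above cell 1 in 5 of 6 embryos (adjusted p = 0.675). Its difference depends on the floor, where 1 cell of experiment 2 and 4 of experiment 1 lay.

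Whether the difference between the cells depended on the experiment was tested as an interaction, which passed for 0 members and 0 of all tested probes in limma. At an unadjusted p under 0.05 there were 3 members against 5.27% of all tested probes. For Cnot4, by the probe with the highest mean, cell 2 minus cell 1 was -0.30, -0.09 and -0.77 in the pairs of experiment 2 and 1.37, 2.21 and 1.06 in those of experiment 1 (adjusted p = 0.911 in limma). For Cnot7 it was -0.20, -0.69 and -0.19 in experiment 2 and 0.48, 0.41 and 0.70 in experiment 1. By these probes cell 2 lay below cell 1 in every pair of experiment 2 and above it in every pair of experiment 1, but the genes' other tested probes did not show this. The second Cnot4 probe gave -1.04, 1.41 and 0.40 in experiment 2 and -1.60, -0.54 and -1.61 in experiment 1. The other was Cpsf2, with 1 cell of experiment 2 and 4 of experiment 1 at the floor. On the removing side as a whole, the genes higher in cell 2 numbered 6 (pair D), 3 (pair G) and 4 (pair H) of 11 in experiment 2, and 10 (pair D), 6 (pair I) and 9 (pair L) of 11 in experiment 1. Pair I of experiment 1 thus had the same count as pair D of experiment 2. On the adding side 6, 8 and 4 of 13 were higher in these pairs of experiment 2, and 7, 4 and 6 lower. In those of experiment 1, 8, 5 and 7 were higher and 3, 3 and 4 lower, so the lean was not particular to the removing side. The median over all tested probes was -0.05, 0.20 and 0 in the pairs of experiment 2, and 0, 0 and 0.27 in those of experiment 1. Member probes above background in cell 2 and cell 1 numbered 64 and 75 (pair D), 58 and 57 (pair G), and 61 and 69 (pair H) in experiment 2, and 53 and 33 (pair D), 55 and 57 (pair I), and 51 and 48 (pair L) in experiment 1. The pair with the widest gap in detection, pair D of experiment 1, had the highest count of removing genes, but the other pairs did not follow one order in both. The part of detection in these counts was not tested.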

How the data were processed

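Per the file headers, the deposited intensity values come from Agilent Feature Extraction 9.1.3.1. RNA of single cells was amplified in 2 rounds, per the labels' protocols. The labels name Cy3, but the signal of experiment 1 sits in Cy5, while 0 to 2 member spots per array were above background in Cy3. Outlier spots were dropped and spots of a probe averaged. Each array's processed signals were scaled to its 75th percentile (over 5857 probes that every array measured), raised to a common floor of 0.0574 and put on the log2 scale. limma 3.58.1 in R 4.3.3 tested experiment (embryo as random block, correlation 0.346), embryos (moderated F), and cell number and its interaction (embryo as fixed block), at a Benjamini-Hochberg adjusted p under 0.05 over all 16712 probes. Tests were checked on simulated data without a floor, so the check does not cover values at the floor. Nothing says that embryos came from separate dams, so p-values measure the spread between these samples. The number of arrays limits precision. The members, gene lists and tests were chosen with earlier results of these data known. Every member could be named, and of other pathway genes those that passed and up to 4 others per list. Of the member probes, 62 of 86 were matched by accession to RefSeq names. Alternatives changed the scaling, background, floor, filter, probe rule, block and samples, and used the authors' deposited value table of intensity values.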

Additional observations from a re-analysis of the deposited data

Results flagged for a closer look

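Of 34 groups of 6 cells examined, 2 held a cell far from the others, where chance gives about 1 in 20. Cnot6l read 0.69 in cell 2 of pair G in experiment 2, while the other 5 cells of that experiment read 1.10 to 1.23. Papola read -0.26 in cell 2 of pair H in experiment 2, against 0.74 to 1.23 in the other 5 cells there.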

How the results depend on the processing

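The numbers of members called higher and lower in experiment 2 (1 and 1) became 0 and 0 with the percentile over all probes, 2 and 3 with quantile normalization, 4 and 2 over probes measured on all 12 arrays, and 0 and 0 with the mean over a gene's probes. Over all tested probes the calls in either direction were 1357 in the main setting. In the same order the alternatives gave 172, 1742, 1337 (of 5857) and 1354. The lower count was 0 with normexp, a lower common floor, a floor per array or no filter. Leaving out 1 cell gave 1 to 5 higher and 0 to 2 lower. Cnot2's second probe passed in 18 of 23 alternatives, Papola in 22 of 24 and Cstf2t in 5 of 24. The count between embryos (1) became 0 with the percentile over all probes, a lower floor, probes measured on all 12 arrays, without pair D of experiment 2 and within slides, 2 with quantile normalization or a floor per array, 4 with no filter, 7 with normexp, and 0 to 9 without 1 cell. Over all tested probes the calls between embryos were 235 in the main setting, 509 with quantile normalization and 4359 with a floor per array. They were 2750 of 41174 with no filter, 5845 with normexp and 0 to 3885 without 1 cell. The median of the adding side was -0.00199 with normexp and 0.70 with a lower floor. The cause of these changes was not tested. Counts for cell number and its interaction were 0 in all 22 alternatives run. Cell numbers were shared between embryos, and with cell number as a replicate block the count between embryos was 0 (Cnot8 adjusted p = 0.0854 in limma) and the experiment counts stayed at 1 and 1. The labels do not say that the numbers pair cells of different embryos, and the cells did not deviate together in every pair: 3 of 15 correlations between embryos' cell differences were over 0.1 (-0.0793 to 0.259), although 12 of 12 cells correlated best with a cell of their own number, a hint from the data and not from the design. Dim probes limit the rest: values at the floor have no order, and 13 of 31 genes lacked a probe measured on all 12 arrays.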
